A study of Homo sapiens with 4 samples.

Results

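Nuclear receptors are transcription factors that bind DNA through a pair of zinc fingers, and many of them change activity when a small ligand such as a steroid, a retinoid, thyroid hormone, vitamin D, a bile acid or a fatty acid enters a pocket of the protein. Many work as pairs with an RXR protein, and recruit coactivators or corepressors to the genes they bind. NR2F1 and NR2F2, also known as COUP-TFI and COUP-TFII, are orphan receptors that bind the same repeated DNA sites as retinoid and other RXR partners and often act there as repressors. The human nuclear receptor genes around NR2F1, 46 genes chosen by symbol, were examined on 4 single color Agilent arrays. They are carried by 80 of the 50238 probes that are not controls, which hold 31033 distinct gene names.

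The arrays measured RNA of HCT116 derived clones. HCT116 is an established human colon carcinoma cell line with epithelial character. The vector control clone (vec) carries the control vector and the knockdown clone (shpkp3-2) carries an shRNA against PKP3, which encodes plakophilin 3, a desmosomal plaque protein. Both clones were grown under drug selection, for which the labels name puromycin and the study's methods name blasticidin, and both came from the same parental line. Each clone gave 2 RNA samples, and the series' design text places the first vec and the first shpkp3-2 sample in one RNA collection and the second of each in another. Each genotype is 1 clone, so that the p-values measure the spread between RNA collections of a clone and a difference between clones cannot be told apart from an effect of the shRNA. All 4 arrays lie on 1 slide, where position and clone cannot be told apart.

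The sequences below show what the receptor probes measure. Each line gives the first 30 of the 60 bases of a probe, and the capitals in the NR2F1 probes mark the start of a stretch of 49 bases that all 3 NR2F1 probes share. These probes are windows on the same piece of transcript and do not measure NR2F1 independently.
NR2F1 lead probe: GACTCTTTTAGGATCAGATCTGTGAGCACG
NR2F1 second probe: gggaaaaagaGACTCTTTTAGGATCAGATC
NR2F1 further probe: ggaaaaagaGACTCTTTTAGGATCAGATCT
NR2F2 lead probe: actgaactgtttggtcgagtctttgtgtgt
NR2F6 lead probe: ggaccaggtgcgcgccttccaggagcaggt
NR4A1 lead probe: aatgacagattctgacatttatatttgtgt
NR4A2 lead probe: aagttttctgctgtaaagaaagctgtaata
NR4A3 lead probe: gaaatcaggaagccaccagctgttaatgga
THRB lead probe: cactatatcaattaccgaaaacaccacgtg

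Between 60.5% and 63.5% of the 51538 spots were well above background on each array, with 0 saturated spots. The first vec array was the brightest, with a 75th percentile of 499 against 374 to 381 on the other arrays, a difference that the scaling to this percentile takes out. The lowest signal that was well above background lay between 8.41 and 9.74 on the 4 arrays. The targeted gene followed the labels. The PKP3 probe read 20850 and 22840 in vec against 3414 and 3078 in shpkp3-2, which is 17.2% of vec and a log2 fold change of -2.54 (SE 0.23, limma adjusted p = 0.0188). Of 8 colon epithelial markers, 6 (EPCAM, CDH1, KRT8, KRT18, KRT19 and CDX2) were well above background on all arrays, CDX1 was on no array and VIL1 on 1 shpkp3-2 array. The fibroblast genes COL3A1, DCN and LUM, the leukocyte gene PTPRC and the endothelial gene CDH5 were well above background on no array, while COL1A1, CD3E, CD14, PECAM1 and VWF were on all of them. The summed signal of the fibroblast list was 110 to 189 in vec and 114 to 138 in shpkp3-2, and that of the endothelial list was 61.9 to 111 and 72.9 to 92.9, so that for both lists the range of the shpkp3-2 arrays lay within that of the vec arrays.

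Probes of many nuclear receptor genes were well above background in the HCT116 clones. Of the 46 genes, 31 had a lead probe, the brightest of the gene, that stood well above background in both samples of a clone, in 1 clone or in both, and entered the test, and 30 of them were well above background on all 4 arrays. THRB, a thyroid hormone receptor gene, passed this flag for 1 of the 2 vec and for both shpkp3-2 samples. Some of the 30 were dim, such as ESR1 (14.8 to 18.6), NR5A2 (13.5 to 19.3), ESRRB (12.1 to 22.2) and NR1I3 (14.9 to 17.9). The other probes of ESR1, NR5A2 and ESRRB were well above background on no array. The non-epithelial markers CD3E and PECAM1 passed the flag at similar signals, so that at this level the flag does not establish expression. The other 15 did not enter the test. These were the estrogen and progesterone receptor genes ESR2 and PGR, the estrogen-related receptor ESRRG, the liver and gut receptors HNF4A and HNF4G, the bile acid receptor NR1H4 (FXR), the xenobiotic receptor NR1I2 (PXR), the receptors NR0B1 and NR0B2, which lack the usual DNA-binding domain, the retinal and neural receptors NR2E1 and NR2E3, the steroidogenic factor NR5A1, the retinoic acid receptor RARB, and the ROR genes RORA and RORB. Of these 15, 14 were well above background on no array with any probe, and ESRRG was on 1 shpkp3-2 array. A probe that is not well above background gives no more than a rough upper limit on its transcript.

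Of the 31 tested receptor genes, limma called 0 higher and 0 lower, with p adjusted over all 30520 probes tested and a threshold of 0.05, where 0.249% of probes were called higher and 0.147% lower. At an unadjusted p under 0.05, 5 of the 31 were higher (NR4A1, NR4A2, NR4A3, NR2C2 and THRB) against 7.36% of all probes, and 1 was lower (NR2F1) against 4.98%. With the RNA collection as a block, 3 were called higher (NR4A2, NR4A3 and THRB, the last of which entered the test only through shpkp3-2) where 1.65% of all probes were, and 1 lower (NR2F1) where 1.11% were. Arrays of the same collection did not vary together (correlation of their deviations -0.199). The lower p-values with the block, here and below, are therefore no stronger evidence than those without it. An equal-variance test called 0 of all 30520 probes, PKP3 included (adjusted p = 0.436), so that its 0 among the receptors says nothing about them. The median log2 fold change of the tested receptor genes was 0.06 against 0.05 over all probes tested, with 18 genes higher and 13 lower.

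The study names a pair of cut-offs for the HCT116 clones, 2-fold on each knockdown array in the notes to its supplementary data and 1.5-fold in a figure legend, and both were applied here to each shpkp3-2 array against the mean of the vec arrays. The 2-fold cut-off took 3 receptor genes as higher (NR4A2, NR4A3 and THRB) where 1.12% of all probes passed, and 0 as lower where 0.623% passed. The 1.5-fold cut-off took the same 3 as higher, where 4.23% of all probes passed, and NR2F1 as the 1 lower gene, where 2.65% passed. NR2F1 lay at the edge of the 2-fold cut-off, with values 0.97 and 1.06 log2 units below the vec mean where 1 was required, and NR4A2 was just inside it, with values 1.02 and 1.20 above the mean. THRB had to be bright in shpkp3-2 to enter these counts, as it was not well above background on both vec arrays, and without it the counts of higher genes are those of NR4A2 and NR4A3. For 10 receptor genes both shpkp3-2 arrays were above both vec arrays, and for 4 both were below, while 27.2% and 18.0% of all probes did the same. These counts of non-overlapping genes are near the background of the array.

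**Figure D1:**
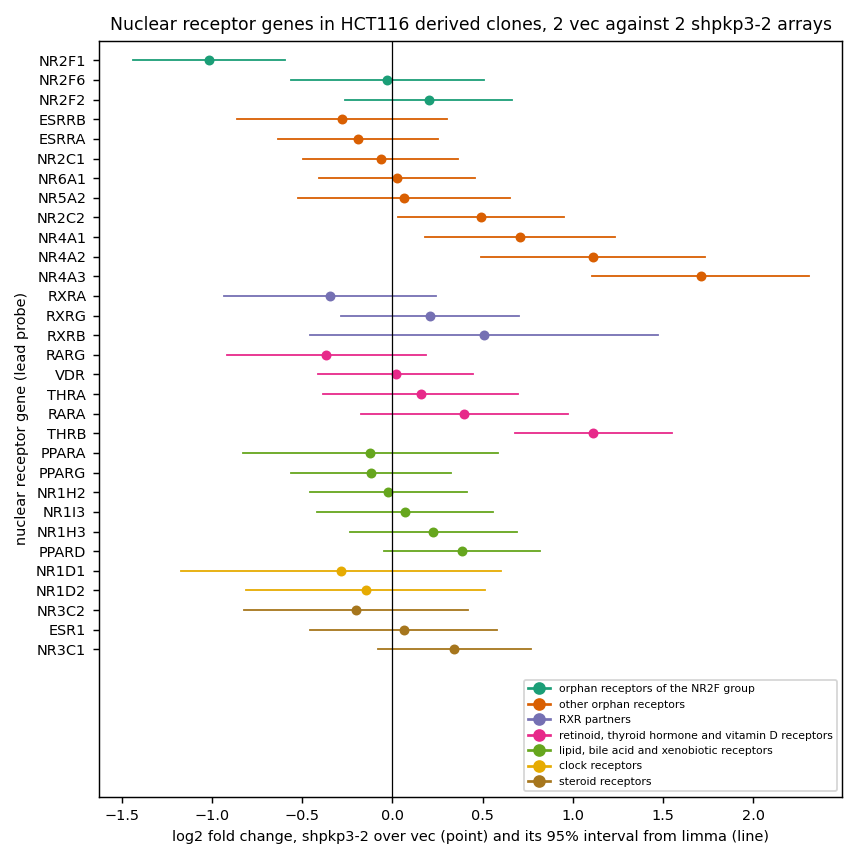
Log2 fold change of shpkp3-2 over vec (x axis) for the lead probe of each of the 31 tested nuclear receptor genes (y axis), colored by receptor class, with 95% intervals from limma as lines (2 arrays per clone). NR2F1 lies at -1.02, and NR4A3, THRB, NR4A2, NR4A1 and NR2C2 lie at 1.71, 1.11, 1.11, 0.71 and 0.49, with intervals that leave out 0. THRB entered the test only through shpkp3-2. The intervals are not adjusted for the number of probes, and 0 receptor genes had an adjusted p under 0.05. For 23 genes the interval holds 0 and lies within 1 log2 unit of it.

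NR2F1 was the receptor gene with the lowest log2 fold change of the 31. Its lead probe read 7186 and 5403 in vec against 2769 and 2557 in shpkp3-2. Both shpkp3-2 arrays were below both vec arrays, by a similar amount in each RNA collection (-0.98 and -1.05 log2). The normalized log2 difference was -1.02 (SE 0.17, 95% interval -1.44 to -0.59, n = 2 arrays per clone), with a limma adjusted p of 0.115 and of 0.0354 with the collection as a block. The other 2 NR2F1 probes, which share the stretch in capitals above, gave -1.08 and -1.06. With 2 arrays against 2 the exact permutation test cannot go below 0.333, which was the p of NR2F1.

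NR2F2 is the closest relative of NR2F1. Its lead probe read 6151 and 5037 in vec against 6073 and 5021 in shpkp3-2, a log2 fold change of 0.20 (SE 0.19, 95% interval -0.26 to 0.66, limma adjusted p = 0.693). After scaling both shpkp3-2 values were above both vec values, but the difference was near its SE, and its interval leaves out the log2 fold change of NR2F1. The NR2F2 value was 0.07 without shpkp3-2 1 and 0.33 without shpkp3-2 2. With the second NR2F2 probe the log2 fold change was 0.26 and the clones overlapped. NR2F6, also known as EAR2, read 1254 and 1314 in vec against 1136 and 1040 in shpkp3-2, with a log2 fold change of -0.03 (SE 0.22, limma adjusted p = 0.971) and clones that overlapped. Its sign turned to 0.20 without vec 2 and to 0.03 without shpkp3-2 2. The change of NR2F1 was 1.22 log2 units below that of NR2F2 (difference -1.22, exact permutation p = 0.333, two-sided) and 0.99 below that of NR2F6 (difference -0.99, exact permutation p = 0.333), in each case with the shpkp3-2 arrays on one side of the vec arrays and at the smallest p that the design allows.

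**Figure D2:**
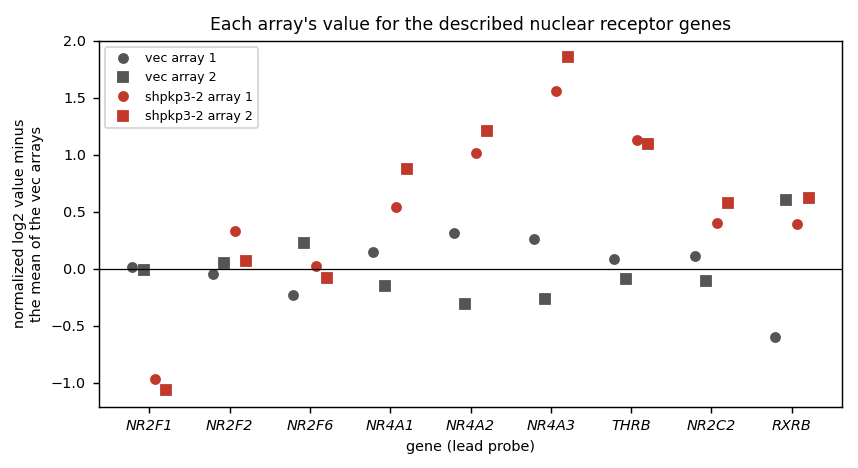
Normalized log2 value of each array minus the mean of the vec arrays (y axis) for the lead probe of 9 nuclear receptor genes (x axis). Grey points are vec and red points shpkp3-2, with circles for the first and squares for the second RNA collection. The shpkp3-2 arrays lie about 1 unit under the vec arrays for NR2F1, above them for the NR4A genes and THRB, and the clones overlap for NR2F6 and RXRB.

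The NR4A genes NR4A1 (NUR77), NR4A2 (NURR1) and NR4A3 (NOR1) encode orphan receptors that are known as immediate early genes, induced within a short time by growth factors, stress and cyclic AMP. All 3 lead probes were higher on the shpkp3-2 arrays. NR4A3 had the highest log2 fold change of the 31 receptor genes. Its lead probe read 253 and 134 in vec against 472 and 572 in shpkp3-2. Both shpkp3-2 arrays were above both vec arrays, and the vec arrays themselves differed, vec 1 being the higher. The log2 fold change was 1.71 (SE 0.24, 95% interval 1.11 to 2.31), a fold of 3.27, with a limma adjusted p of 0.0786 and of 0.000213 with the collection as a block.

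NR4A2 read 132 and 65.8 in vec against 164 and 185 in shpkp3-2. The clones did not overlap, although vec 1 was nearer to the shpkp3-2 arrays than vec 2 was. The log2 fold change was 1.11 (SE 0.25, limma adjusted p = 0.199, and 0.0231 with the collection as a block). NR4A1 read 1340 and 832 in vec against 1332 and 1660 in shpkp3-2, and the clones were separate only after scaling. Its log2 fold change was 0.71 (SE 0.21, limma adjusted p = 0.301, and 0.250 with the block). In the first RNA collection the differences of NR4A1, NR4A2 and NR4A3 were 0.39, 0.71 and 1.30, and in the second they were 1.02, 1.51 and 2.12, so that each gene differed more in the second collection.

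The NR4A1 and NR4A3 genes each had a second probe, to another RefSeq transcript. The second NR4A1 probe differed in the other direction, reading 24.7 and 14.4 in vec against 13.5 and 8.01 in shpkp3-2, with a log2 fold change of -0.65 (SE 0.30, limma adjusted p = 0.455). It was well above background on 3 of 4 arrays. The direction of NR4A1 therefore rests on the lead probe, and with the mean of its tested probes the gene's log2 fold change was 0.03. The second NR4A3 probe was well above background on no array.

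NR4A genes are known targets of CREB, which binds sites built on the letters TGACG, and the NR4A3 promoter is shown because the NR4A lead probes differed in the same direction. The RefSeq sequence of GRCh38.p14 at chr9:99821635-99821934, on the + strand, runs from 250 bases before to 50 bases from the start of NR4A3. Capitals mark each match to TGACG on either strand (CGTCA on the other strand), at 109, 91, 83 and 25 bases before the start.
NR4A3 promoter: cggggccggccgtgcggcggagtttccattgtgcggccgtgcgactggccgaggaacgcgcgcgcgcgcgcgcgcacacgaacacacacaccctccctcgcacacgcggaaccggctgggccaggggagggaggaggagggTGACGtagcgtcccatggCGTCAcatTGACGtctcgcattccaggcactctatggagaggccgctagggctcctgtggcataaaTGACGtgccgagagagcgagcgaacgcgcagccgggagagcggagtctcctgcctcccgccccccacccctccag
This window holds 4 matches, where 24.6% of 35116 promoters of the same length hold at least 1 and 0.313% hold 4 or more. The 2 promoter windows of NR4A1 and the 2 of NR2F1 hold 0 matches, and 1 of the 2 of THRB holds the motif, while the promoter of NR4A2 was not analysed here. A match describes the letters only, and binding was not measured. The promoter was picked after the values of the genes were seen, and a link between the motif and the difference of the clones was not tested.

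The receptors for retinoic acid, thyroid hormone and vitamin D work as partners of RXR. THRB, which encodes the beta form of the thyroid hormone receptor, had signals of 10.1 and 6.81 in vec against 15.7 and 15.2 in shpkp3-2. Both shpkp3-2 arrays were above both vec arrays, and all 4 signals lay near the level at which a spot is called well above background. The log2 fold change was 1.11 (SE 0.18, limma adjusted p = 0.101, and 0.0179 with the block), and it was 0.33 after normexp background correction. THRB entered the test only through shpkp3-2, so that its p-values rest partly on a vec signal not well above background. THRA, the alpha form, had a log2 fold change of 0.16 (limma adjusted p = 0.798) and VDR, the vitamin D receptor, of 0.02 (limma adjusted p = 0.979).

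RARG, a retinoic acid receptor, read 669 and 361 in vec against 325 and 333 in shpkp3-2 with its lead probe, where vec 1 was the high array and the log2 fold change was -0.37 (limma adjusted p = 0.560), or -0.11 without vec 1. Its second probe, named after its values were seen, read 71.7 and 66.0 against 35.0 and 37.9, a log2 fold change of -0.71 (SE 0.19, limma adjusted p = 0.255). RARA had a log2 fold change of 0.40 with its lead and -0.18 with its second probe, so that its direction depended on the probe, and the lead value was 0.12 without vec 1 and 0.67 without vec 2. Among the RXR genes, RXRB read 167 and 294 in vec against 253 and 293 in shpkp3-2. The low value of vec 1 set the log2 fold change of RXRB, which was 0.51 (SE 0.39, limma adjusted p = 0.630) and -0.092 without vec 1. RXRA and RXRG had log2 fold changes of -0.34 and 0.21.

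Among the remaining receptors NR2C2, the testicular receptor TR4, read 160 and 105 in vec against 148 and 166 in shpkp3-2, with a log2 fold change of 0.49 (SE 0.19, limma adjusted p = 0.384). Its relative NR2C1 was at -0.06. The other orphan receptors NR5A2, NR6A1, ESRRA and ESRRB lay between -0.28 and 0.06. The lipid receptors, which are the liver X receptors NR1H2 and NR1H3, the fatty acid receptors PPARA, PPARD and PPARG, and the xenobiotic receptor NR1I3, lay between -0.12 and 0.39. The steroid receptors ESR1, NR3C1 (the glucocorticoid receptor) and NR3C2 (the mineralocorticoid receptor) lay between -0.20 and 0.34. For the 22 tested genes outside those given by array under the naming rule, log2 fold changes ran from -0.37 to 0.40 and the lowest adjusted p was 0.451. The 95% intervals of the 31 genes had a median half-width of 0.52 log2 units, so that changes smaller than this could mostly not be told from 0 with 2 arrays per clone.

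The probes of a gene could differ in sign. Of the 16 receptor genes with several tested probes, 10 had probes of 1 sign and 6 had probes of opposite sign, which were NR1D2, NR2C1, NR4A1, NR6A1, PPARA and RARA. The probes of NR6A1 and of RXRG share stretches of 20 and 38 bases.

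The RNA collections differed for the clock receptors NR1D1 and NR1D2, known as REV-ERB alpha and beta, which repress genes of the circadian clock. NR1D1 read 4575 and 1837 in vec against 1685 and 2501 in shpkp3-2. In the first collection shpkp3-2 was lower (-1.04 log2) and in the second it was higher (0.47), which left a log2 fold change of -0.29 (SE 0.36) that turned to 0.18 without vec 1. The lead probe of NR1D2 read 319 and 158 in vec against 156 and 196 in shpkp3-2, and also differed in sign between collections. For both lead probes vec 1 was the highest of the 4 arrays. The second NR1D2 probe did not do this, with 91.9 and 103 in vec, 114 and 123 in shpkp3-2, and differences of 0.71 and 0.29 in the first and second collection. Of the 31 receptor genes, 15 had differences of opposite sign in the 2 collections. The same share over all probes tested is not given here, so that this count is no result about the receptors.

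Nuclear receptors work with coactivators and corepressors. Among 15 tested coactivator genes limma called 0 higher and 0 lower. KAT2B, the histone acetyltransferase PCAF, read 122 and 62.1 in vec against 32.8 and 41.5 in shpkp3-2, with both shpkp3-2 arrays the lower (log2 fold change -1.03, limma adjusted p = 0.236, and 0.0449 with the block), and it was at -0.42 after normexp background correction. Among 13 tested corepressor genes 0 were called. BCL11A, also known as CTIP1 for its interaction with COUP-TF proteins, read 128 and 53.1 in vec against 181 and 232 in shpkp3-2, which did not overlap (log2 fold change 1.52, SE 0.32, limma adjusted p = 0.178, and 0.00167 with the block). LCOR, a ligand-dependent corepressor, was at 0.51 (limma adjusted p = 0.380). The median log2 fold change was -0.02 for the coactivators and 0.10 for the corepressors.

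The genes that make, carry or break down retinoids, and the target genes of retinoic acid, gave 0 calls among 15 and 6 tested genes. CYP26A1, the enzyme that breaks down retinoic acid and is itself a target gene, read 294 and 238 in vec against 147 and 110 in shpkp3-2, with no overlap (log2 fold change -0.84, limma adjusted p = 0.224). DHRS9, a retinol dehydrogenase, read 18.7 and 10.3 in vec against 25.4 and 27.3 in shpkp3-2 (log2 fold change 1.13, limma adjusted p = 0.152, and 0.0178 with the block), and it was at 0.42 after normexp background correction. BCO2, which cleaves carotenoids, was at 0.50 (limma adjusted p = 0.394). The median was 0.11 for the retinoid enzymes and carriers and -0.16 for the target genes.

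Of 8 tested genes of vitamin D metabolism and response, 0 were called, and CYP24A1 and CALB1 differed in opposite directions. CYP24A1, the enzyme that inactivates vitamin D, read 407 and 204 in vec against 736 and 767 in shpkp3-2, all shpkp3-2 values being higher (log2 fold change 1.60, SE 0.25, limma adjusted p = 0.0915, and 0.000492 with the block). CALB1, a calcium-binding protein, read 65.8 and 40.7 in vec against 13.8 and 21.3 in shpkp3-2, all shpkp3-2 values being lower (log2 fold change -1.38, limma adjusted p = 0.150, and 0.00356 with the block), and it was at -0.34 after normexp background correction. The receptor of this pathway, VDR, was at 0.02 as given above.

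The target genes of the liver X receptors and of FXR held the only list gene with an adjusted p under 0.05, on values that are below background in shpkp3-2. ABCA1, the cholesterol exporter, read 25.8 and 14.9 in vec against 2.25 and 1.95 in shpkp3-2. Its probe passed the background flag in 2 of 2 vec and 0 of 2 shpkp3-2 samples, so that only a rough limit can be given. By that limit ABCA1 was lower in shpkp3-2 by roughly 1.87-fold or more (limma adjusted p = 0.00801). ABCA1 entered the test only through vec, where it is the brighter, and its p rests on shpkp3-2 signals not well above background. The limit sets the mean of the vec arrays against the mean of the lowest signals called well above background in shpkp3-2, or of the probe where that is higher. It is not a strict bound, as a probe that fails the flag can exceed the lowest flagged signal. The ESRRG lead probe read 11.0 without the flag on the first shpkp3-2 array, where the lowest flagged signal was 9.74. The ABCA1 call was lost after normexp background correction (-0.26, limma adjusted p = 0.536), without a detection filter (0.0786), with the weaker detection flag (0.0856) and with an equal-variance test (0.421), and it passed in 8 of 12 alternatives. After normexp correction the fitted value of SLC51B was 0.38 against 1.52. SLC51B, a subunit of the bile acid exporter, read 7.91 and 4.92 in vec against 15.1 and 15.9 in shpkp3-2. Its probe passed that flag in 0 of 2 vec and 2 of 2 shpkp3-2 samples, and was higher in shpkp3-2 by roughly 1.87-fold or more by the same kind of limit (limma adjusted p = 0.0539, and 0.000747 with the block). SLC51B entered the test only through shpkp3-2, and its p-values rest on vec signals not well above background.

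Other targets on this list differed in both directions. FGF19, a gut hormone that lowers bile acid synthesis, read 380 and 262 in vec against 97.0 and 111 in shpkp3-2, with the shpkp3-2 arrays the lower (log2 fold change -1.39, SE 0.19, limma adjusted p = 0.0640, and 0.00211 with the block). FABP6, the ileal bile acid-binding protein, read 666 and 455 in vec against 964 and 1119 in shpkp3-2, with the shpkp3-2 arrays the higher (log2 fold change 1.13, limma adjusted p = 0.111, and 0.0172 with the block). MYLIP, a ubiquitin ligase for the LDL receptor, was at 0.58 and APOE at -0.54 (limma adjusted p = 0.304 and 0.317). Over the 11 tested genes of this list, 1 was called lower and 0 higher, and the median was 0.08. NR1H4, the FXR gene itself, was well above background on no array, while NR1H2 and NR1H3 were well above background on all 4.

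**Figure D3:**
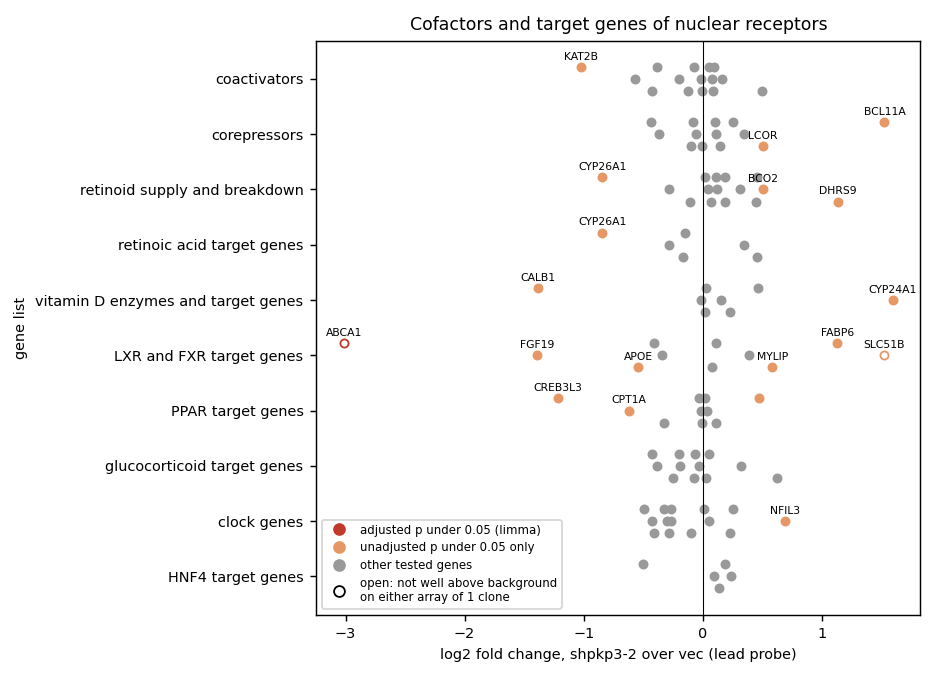
Log2 fold change of shpkp3-2 over vec (x axis) for the lead probe of each tested cofactor and target gene of nuclear receptors, 1 row of points per list (y axis). ABCA1 is the only point with an adjusted p under 0.05. Open points are genes not well above background on either array of 1 clone, whose fitted fold change is no bound.

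Of 10 tested PPAR target genes 0 were called. CREB3L3, a transcription factor of liver and gut, read 190 and 78.6 in vec against 43.3 and 47.3 in shpkp3-2, which were the lower (log2 fold change -1.22, limma adjusted p = 0.234, and 0.0127 with the block), and it was at -0.78 without vec 1 and at -0.70 after normexp background correction. CPT1A, which admits fatty acids to mitochondria, was at -0.62 (limma adjusted p = 0.306). The median of this list was -0.01. The glucocorticoid target genes gave 0 calls among 12 tested and a median of -0.07, and the HNF4 target genes 0 among 5 tested, with 9 of the 16 genes well above background on no array, as were the HNF4 genes themselves.

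The clock genes gave 0 calls among 14 tested, with a median of -0.27 against 0.05 over all probes. Within the first RNA collection their median difference was -0.27, and within the second it was -0.03. NFIL3, a repressor of clock output genes, read 7005 and 5541 in vec against 8126 and 9229 in shpkp3-2, which were the higher (log2 fold change 0.69, limma adjusted p = 0.245). DBP, a clock output gene named after its values were seen, read 643 and 301 in vec against 260 and 354 in shpkp3-2. As for NR1D1, vec 1 was the highest array, and the differences of DBP were -0.91 in the first collection and 0.26 in the second, with a log2 fold change of -0.33 that was 0.027 without vec 1.

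The calls on NR2F1, NR4A2, NR4A3 and THRB changed with the fit, while their signs did not turn under any alternative run. Over 14 alternatives the log2 fold change of NR2F1 lay between -1.10 and -0.94 with adjusted p between 0.0337 and 0.487, under the threshold in 3 of them. That of NR4A3 lay between 1.42 and 1.97 with adjusted p between 0.000213 and 0.494, under the threshold in 5 of them. NR4A2 ranged from 0.75 to 1.42 and passed in 1 alternative.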

How the data were processed

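Cy3 labeled RNA of 2 vec and 2 shpkp3-2 samples was hybridized to single color arrays, and the authors deposited the output of Agilent Feature Extraction for each array (version 10.7.3.1 per the file headers, 9.1 per the labels). The deposited intensity, the processed signal, is background-subtracted and detrended on a linear scale and not normalized between arrays. A catalogue array is named in the methods, but the files carry probe names of a custom design on hg18. Groups follow the clone names in the labels.

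The log2 of the processed signal minus the 75th percentile of the array was used. Spots flagged as non-uniform (26 to 39 per array) were left out and spots of a probe were averaged, which left 50117 of 50238 probes. Differences of shpkp3-2 minus vec were fitted by lmFit and eBayes of limma 3.58.1 (R 4.3.3) for 30520 probes, those well above background in both samples of 1 clone or of both. P-values were adjusted after Benjamini and Hochberg, with 0.05 as the threshold. The brightest probe of a gene led. Gene names are those of the files, and 68 of the 80 receptor probes matched the same RefSeq symbol by accession and 0 another. Receptors were given by array where they belong to the NR2F group, had an unadjusted p under 0.05 or an absolute log2 fold change of at least 0.5, or were detected differently in the clones. RARG, NR1D1 and NR1D2 were given by array outside this rule. List genes were named with both an unadjusted p under 0.05 and a change of at least 0.5. The members and lists were chosen with earlier results of these data known.

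The design text pairs arrays of the same number by RNA collection. Their deviations from the clone means correlated at -0.199 over 30520 probes. The correlation was negative, so that the block took out no shared variation. As the study compared the clones without it, the collection was used as a block only beside the results. The block called 841 probes, against 121 without it and 104 with a crossed block, and its p-values are no stronger evidence. Arrays of a clone correlated at 0.989 (vec) and 0.995 (shpkp3-2), and their median SD was 0.20 and 0.12 log2 units. The number of arrays limits the precision. On simulated data with changes of 2 or 3 log2 units, larger than the log2 fold change of any receptor gene here, limma recovered 84 and 97 probes of these sizes out of 200 in all among 30520 and called 19 unchanged ones. Smaller changes were not simulated.

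Alternatives were normexp background correction (offset 50), quantile and median scaling, other detection filters, the block, a trended and robust prior, an equal-variance test, each array left out, the mean of a gene's probes, a 1.5-fold cut-off and, chosen after seeing the data, a crossed block. The normexp offset is added to each signal and shrinks the fold changes of dim probes by construction. Python 3.11.15 with numpy 2.4.6, pandas 2.3.3, scipy 1.17.1 and matplotlib 3.10.9 was used. Other columns of the deposited tables were used only as flags or in the alternatives. A marker gene and the summed signal of its list are not reported here.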

Additional observations from a re-analysis of the deposited data

Results flagged for a closer look

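The lead probes of NR1D1, NR1D2 and PPARA differed between the clones in opposite directions in the 2 RNA collections, by at least 0.3 log2 units in each, a limit chosen after the values were seen. For NR1D1 shpkp3-2 minus vec was -1.04 in the first collection and 0.47 in the second. For NR1D2 it was -0.64 and 0.34, and for PPARA it was -0.63 and 0.39. The second NR1D2 probe gave 0.71 and 0.29, the same sign in both collections. Each collection holds 1 array per clone, and the difference between collections was not tested.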

How the results depend on the processing

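Against 121 probes called, there were 74 after quantile normalization, 18 without a detection filter, 46 with detection on all 4 arrays, 2 with the weaker detection flag, 0 with an equal-variance test and 841 with the replicate block. Leaving out 1 array gave 140 to 604, with 257 without vec 1 and 604 without vec 2. Against 0 receptor genes called, there were 2 (NR2F1 and NR4A3) after normexp correction (109 probes higher and 64 lower in all) and with a trended and robust prior (114 higher and 59 lower), 4 with the replicate block, and 0 to 1 with 1 array left out, which was NR4A3 without vec 1 or vec 2. NR2F1 passed the test after normexp correction (-0.94, adjusted p = 0.0337), with the replicate block (-1.02, adjusted p = 0.0354) and with a trended and robust prior (-1.02, adjusted p = 0.0346), and with 1 array left out it lay between -1.06 and -0.97 with adjusted p from 0.0630 to 0.487. PKP3 did not pass without a detection filter (-2.54, adjusted p = 0.135), with the weaker flag (-2.54, adjusted p = 0.145) or with an equal-variance test (-2.54, adjusted p = 0.436). The 3 receptor genes past 2-fold became 1 after normexp correction, and the count moved in both directions with 1 array left out. The share of all probes past 2-fold under these alternatives is not given here. Whether the receptor genes moved more than the rest of the array can therefore not be told from these counts. With the reported processing 4 receptor genes were past 1.5-fold, with 3 higher and 1 lower (NR2F1). The sign turned for RXRB without vec 1 (-0.092), with a range of -0.092 to 1.11 over the arrays left out, and for NR2F6 without vec 2 (0.20) and without shpkp3-2 2 (0.027), with a range of -0.26 to 0.20. It also turned without vec 1 for NR1D1 (0.18), NR1D2 (0.17), PPARA (0.26) and DBP (0.027), and without shpkp3-2 1 for NR1D1 (0.0073), NR1D2 (0.027) and PPARA (0.0046), with ranges of -0.75 to 0.18 for NR1D1, -0.46 to 0.17 for NR1D2, -0.50 to 0.26 for PPARA and -0.68 to 0.027 for DBP. The other genes given by array, and the named list genes, kept their sign under the alternatives run. The crossed block called 104 probes, 64 higher and 40 lower, and 0 receptor genes. The median of the receptor genes lay between -0.03 (quantile) and 0.20 (without vec 2). The causes were not tested. With an array left out, the lone sample of a clone is assumed to vary like the other clone. Probes near the background limit, such as that of THRB, are the least certain.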
